A study of Homo sapiens with 4 samples.

Results

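Polyamine synthesis and turnover was followed through 10 genes in A549, a human lung adenocarcinoma cell line, in 1 library with RBM4 knocked down and 1 control library. RBM4 encodes an RNA-binding protein with roles in alternative splicing, and the title of the series concerns senescence. The series holds 4 samples, a knockdown and a control each of A549 and of H1299, another lung cancer line. H1299 was not analysed here. With 1 library per group, every difference below is between those libraries, has no replicate check and carries no test. Of the knockdown, the labels give the target and the letters "sh" in the sample title, with no time and no account of how the control was made.

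The 10 genes were taken by symbol out of 19732, with 41 of the 79989 transcripts in the table, and all 10 reached 1 FPKM (a level that corrects the fragment count for transcript length and library size) in at least one library. They are ODC1, AMD1, SRM and SMS for synthesis, AZIN1, OAZ1 and OAZ2 for the control of ODC1, and SAT1, PAOX and SMOX for turnover. The set was chosen by a readout of this same comparison, namely that SRM and ODC1 were lower in the knockdown library. All differences of the 10 genes come from that comparison and are given as a description.

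Polyamines (putrescine, spermidine and spermine) are small cations that bind RNA and are needed for translation and growth. ODC1 makes putrescine from ornithine, AMD1 makes the aminopropyl donor from S-adenosylmethionine, SRM adds that group to give spermidine, and SMS adds another to give spermine. Antizymes bind ODC1 and carry it to the proteasome, while turnover runs through acetylation by SAT1 and oxidation by PAOX, or through direct oxidation of spermine by SMOX. ODC1 is a classical target of MYC, which with its partner MAX binds the E-box CACGTG.

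Promoter sequences of SRM and ODC1 and exon sequences of SAT1 are shown before the levels. No level below was compared by the presence of an E-box. In RefSeq windows on GRCh38.p14, from 250 bases before to 50 bases after a gene's start, the E-box CACGTG (a palindrome, so both strands read alike) was found once for SRM and 2 times in 1 of the 2 windows of ODC1. The SRM match lies at chr1:11060212-11060217, upstream of the first exon, and the ODC1 matches lie at chr2:10448036-10448041 and chr2:10448002-10448007, in the first intron of transcript ENST00000234111. Stretches of these windows outside the first exon of ENST00000234111 and of the SRM transcript ENST00000376957 are given 5′ to 3′ on the minus strand, with the E-boxes in capitals, for SRM at chr1:11060025-11060268 and for ODC1 at chr2:10447983-10448120.
SRM: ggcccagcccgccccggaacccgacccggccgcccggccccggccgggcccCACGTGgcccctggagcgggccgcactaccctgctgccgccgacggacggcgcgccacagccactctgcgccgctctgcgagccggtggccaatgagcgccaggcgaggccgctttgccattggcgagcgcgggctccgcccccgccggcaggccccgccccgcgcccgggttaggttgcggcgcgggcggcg
ODC1: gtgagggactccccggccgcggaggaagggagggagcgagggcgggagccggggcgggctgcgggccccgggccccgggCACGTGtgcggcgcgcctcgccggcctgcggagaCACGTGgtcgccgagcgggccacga

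Of all 35116 promoter windows, 7.26% held the E-box and 0.664% held more than 1. The table gave 10 windows for 7 of the polyamine genes, among them 3 for AMD1 and 2 for ODC1. Of these windows 2 held the E-box, that of SRM and 1 of ODC1. The windows of AMD1, SMS, OAZ1, OAZ2 and SAT1 did not contain these letters. AZIN1, PAOX and SMOX had no window and were not examined. Counted by gene, 2 of 7 held the E-box in any window, beside 8.77% of all genes. A match is a description of the sequence and does not show that a factor binds there.

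SAT1 turned out to differ in its transcripts more than in its sum. The reference transcript ENST00000379270 holds exon 3, of 84 bases (28 codons), at chrX:23783800-23783883 on the plus strand of GRCh38, and ENST00000379254 joins exon 2 to exon 4 without it. The GENCODE sequences are given with 30 bases of the exons on either side and exon 3 in capitals.
ENST00000379270: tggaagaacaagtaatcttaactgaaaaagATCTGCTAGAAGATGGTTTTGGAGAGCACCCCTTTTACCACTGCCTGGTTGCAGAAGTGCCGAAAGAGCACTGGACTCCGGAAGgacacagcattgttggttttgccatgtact
ENST00000379254: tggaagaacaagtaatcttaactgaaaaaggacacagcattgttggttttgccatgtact

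The targeted gene, RBM4, had 30.6 FPKM in the knockdown library, against 59.4 FPKM in the control library, or 51.5% of the control level. Which column is which was read from the column names alone. Totals were 622366 FPKM in the knockdown and 671529 FPKM in the control library, with 21.7% and 18.6% of them from mitochondrial transcripts, and the sequencing depth is unknown. Over the 12230 genes at 1 FPKM or more in either library, the log2 difference (knockdown over control, after adding 1 FPKM to each) had a median of -0.04 and a robust SD of 0.45. That scale understates the difference of low genes. Of all these genes, 4.96% were higher and 2.25% lower by at least 2-fold in the knockdown library, so that 68.8% of the 2-fold genes were higher. With mitochondrial genes left out and the rest rescaled, 82.2% were higher and the median of all genes moved to 0.11. All 5 epithelial markers were measured, with a summed level of 1875 FPKM in the knockdown and 3539 FPKM in the control library. Of these, KRT8 and KRT18 had 888 and 912 FPKM in the knockdown library, against 1646 and 1853 FPKM in the control library. These keratins made up most of the sum, and the list did not move one way. KRT19 had 64.9 FPKM in the knockdown library, against 29.6 FPKM in the control library (log2 difference 1.11). EPCAM and CDH1 were low, at 2.75 and 6.54 FPKM in the knockdown library, against 2.74 and 7.70 FPKM in the control library. The markers of other cell types summed to less than the epithelial list in both libraries. Of 8 alveolar markers, 1 reached 1 FPKM (ABCA3), and the surfactant genes SFTPA1, SFTPA2 and SFTPB and the lung factor NKX2-1 were listed at 0 in both libraries. Of 7 fibroblast, 5 immune and 4 endothelial markers, COL1A1 and CD14 reached 1 FPKM, and the summed levels of these lists were 10.5, 4.37 and 0.336 FPKM in the knockdown library against 2.94, 2.16 and 0 FPKM in the control library. In these lists DCN, CD3E, LYZ, VWF and CLDN5 were listed at 0 in both. By contrast, PTPRC, PECAM1, CDH5, PDGFRB and COL1A2 were above 0 in the knockdown library alone, each below 1 FPKM. PDGFRA had 0.718 FPKM in the knockdown and 0.248 FPKM in the control library. The part of these shifts in the results below was not tested, and in bulk RNA fewer cells of a type and less RNA per cell cannot be told apart.

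Within polyamine synthesis the genes did not differ alike: SRM and ODC1 were lower by at least 2-fold in the knockdown library, AMD1 was lower by less, and SMS was slightly higher. Of the 10 polyamine genes, 2 were lower and 0 were higher by at least 2-fold, beside 2.25% and 4.96% of all genes. Since SRM and ODC1 led to the choice of the set, nothing is read from that count. Over the 10 genes the median difference was 0.14, beside -0.04 over all genes, with 6 above 0 and 4 below. Among all genes, 46.6% lay above 0 and 53.4% below.

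SRM (ENSG00000116649, chr1:11054584-11060024, minus strand, GENCODE 29 on GRCh38) encodes spermidine synthase. It had 25.7 FPKM in the knockdown library, against 62.8 FPKM in the control library (40.9% of the control level, log2 difference -1.26). On that scale 1.03% of all genes lay lower. Since a lower SRM led to the choice of the set, nothing is read from that rank. ENST00000376957 carried nearly all of it, with 24.9 FPKM in the knockdown and 61.3 FPKM in the control library. GENCODE names 2 processed copies of SRM elsewhere in the genome, so reads may be shared to an unknown extent.

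ODC1 (ENSG00000115758, chr2:10439968-10448504, minus strand) encodes ornithine decarboxylase, the first enzyme of the pathway. It had 24.4 FPKM in the knockdown library, against 52.2 FPKM in the control library (46.8% of the control level, log2 difference -1.07). Of all genes, 1.85% lay lower, a rank from which nothing is read, since a lower ODC1 also led to the choice of the set. The difference was -0.96 when both libraries were rescaled to the same total and -0.91 with mitochondrial genes left out, so it fell short of 2-fold there, while SRM stayed beyond it at -1.15 and -1.10.

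AMD1 (chr6:110874770-110895713, plus strand), the S-adenosylmethionine decarboxylase gene, had 33.9 FPKM in the knockdown library, against 49.9 FPKM in the control library (log2 difference -0.55). GENCODE lists 4 genes named in that way after AMD1. SMS (chrX:21940573-21994835, plus strand), the spermine synthase gene, had 131 FPKM in the knockdown library, against 106 FPKM in the control library (0.30). The genes for the successive aminopropyl transfers therefore stood on either side of 0, SMS by less than the robust SD of all genes (0.45). Their ratio within a library does not depend on how libraries are scaled: SMS over SRM was 5.10 in the knockdown and 1.69 in the control library. This and the ratios below were chosen after the values were seen. Each divides by SRM or ODC1, the genes that led to the choice of the set by being lower in the knockdown library. A higher ratio in that library was therefore favoured in advance, and nothing is read from it.

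**Figure D1:**
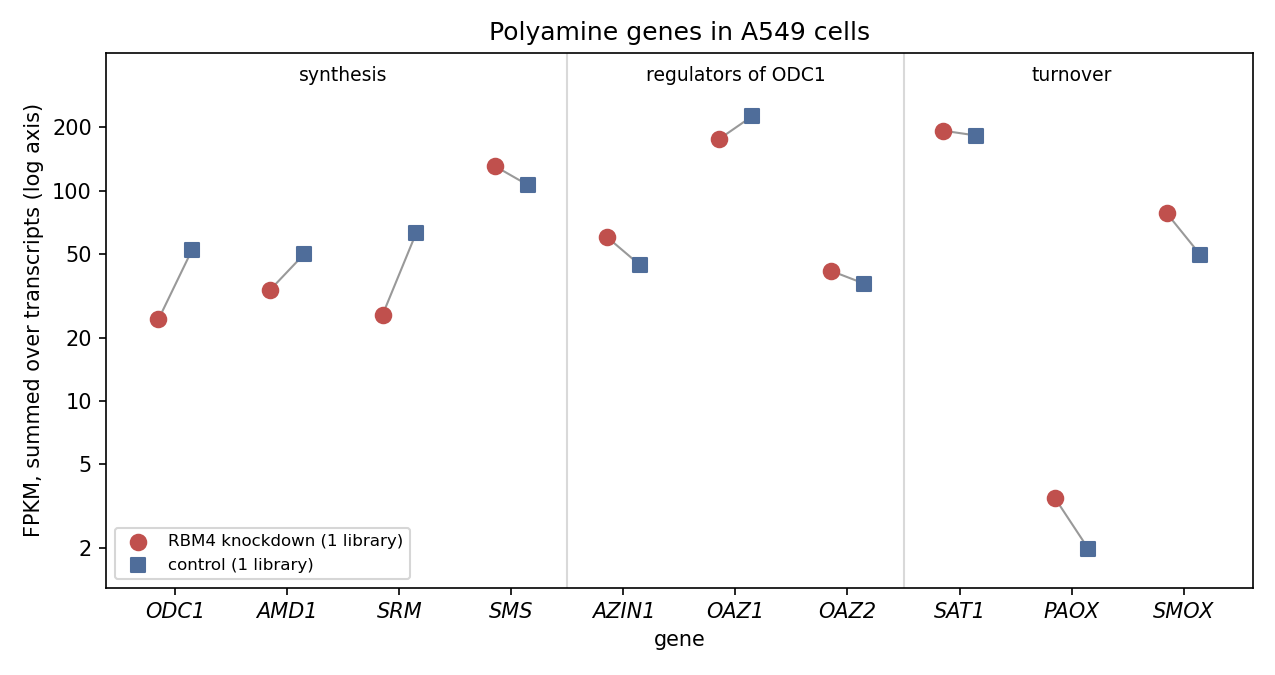
FPKM of the 10 polyamine genes on a log axis, summed over transcripts, in the A549 RBM4 knockdown library (circles) and the control library (squares), 1 library each, joined by a line per gene. SRM and ODC1 sit at 25.7 and 24.4 FPKM in the knockdown and at 62.8 and 52.2 FPKM in the control library, while the 6 genes with a difference above 0 include SMS, AZIN1, SMOX and PAOX.

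Among the regulators of ODC1, no gene differed by 2-fold. AZIN1, the antizyme inhibitor gene, encodes a relative of ODC1 that lacks decarboxylase activity and holds antizyme away from it. AZIN1 (chr8:102826357-102893864, minus strand) had 60.3 FPKM in the knockdown library, against 44.1 FPKM in the control library (log2 difference 0.44). That difference is slightly less than the robust SD of all genes (0.45). An antisense gene, AZIN1-AS1, overlaps its exons, and no strand setting is given, so reads of the pair could not be told apart. AZIN1 stood above ODC1 in the knockdown library and below it in the control library. The AZIN1 over ODC1 ratio was 2.47 in the knockdown and 0.845 in the control library, and it divides by a gene on which the set was chosen.

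OAZ1 and OAZ2 encode antizymes, whose translation needs a ribosomal frameshift that polyamines promote, so their RNA levels do not give the protein made. OAZ1 (chr19:2269509-2273490, plus strand) had 175 FPKM in the knockdown library, against 226 FPKM in the control library (-0.36), and OAZ2 (chr15:64687573-64703281, minus strand) had 41.6 FPKM in the knockdown library, against 36.1 FPKM in the control library (0.20). The antizyme genes thus leaned in opposite directions, both by less than the robust SD of all genes. OAZ1 over ODC1 was 7.16 in the knockdown and 4.32 in the control library, although OAZ1 itself was lower in the knockdown library. Exons of OAZ1 overlap AC005258.1 on the same strand and JSRP1 on the other, and exons of OAZ2 overlap the antisense gene AC100830.3, so both values are uncertain to that extent.

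Turnover genes all lay above 0, as did 46.6% of all genes, from SAT1 at 0.08 to SMOX at 0.65, and none by 2-fold. SMOX (chr20:4120980-4187747, plus strand), spermine oxidase, yields hydrogen peroxide as a by-product. It had 77.9 FPKM in the knockdown library, against 49.5 FPKM in the control library, and 11.0% of all genes had a higher difference. Its 3 most abundant transcripts, ENST00000305958, ENST00000339123 and ENST00000621355, lay higher together, with log2 differences of 0.60, 0.74 and 0.62. PAOX (chr10:133379234-133391694, plus strand), which oxidises the acetylated polyamines in peroxisomes, was low in both libraries, at 3.47 FPKM in the knockdown and 1.99 FPKM in the control library (0.58). PAOX shares exons with AL360181.3 on the same strand and is uncertain.

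**Figure D2:**
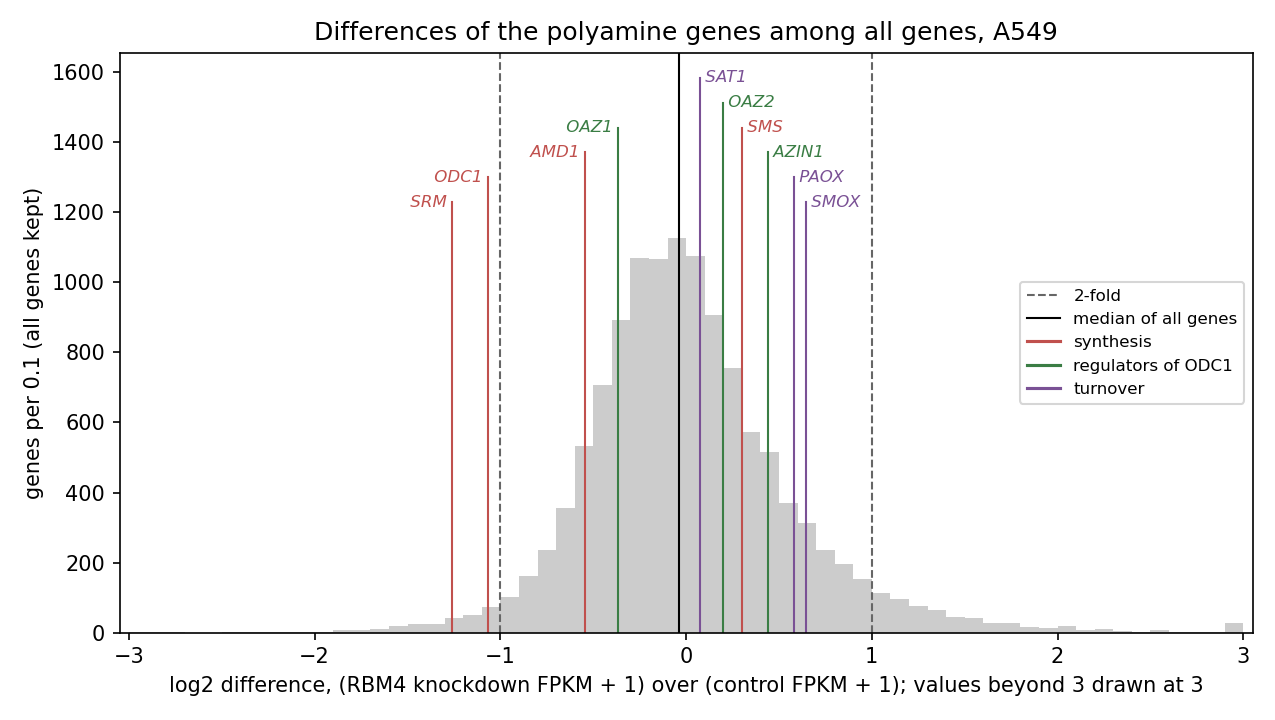
Histogram of the log2 differences (knockdown over control, 1 FPKM added to each) of the 12230 genes kept, in bins of 0.1, with the 10 polyamine genes as vertical lines coloured by role, the median of all genes as a solid line and 2-fold as dashed lines. SRM (-1.26) and ODC1 (-1.07) lie beyond 2-fold on the lower side, and the turnover genes lie between 0.08 and 0.65.

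SAT1 (chrX:23783173-23786226, plus strand) encodes the acetyltransferase that marks spermidine and spermine for export or oxidation. The gene's sum was nearly level, at 193 FPKM in the knockdown library, against 182 FPKM in the control library (log2 difference 0.08), and SAT1 was the most abundant of the 10 genes in the knockdown library. Its 4 listed transcripts differed in direction. ENST00000379270, with all 6 exons and 513 coding bases, had 95.7 FPKM in the knockdown and 124 FPKM in the control library. ENST00000379254, the form without exon 3 whose junction is printed above, has 429 coding bases and had 23.8 FPKM in the knockdown and 0.580 FPKM in the control library. The form that skips exon 3 thus held 12.4% of SAT1 in the knockdown and 0.318% in the control library, and the 6-exon form held 49.7% and 68.0%.

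The other SAT1 transcripts, ENST00000379253 and ENST00000379251, end before exon 4. They had 47.5 and 25.6 FPKM in the knockdown library, against 37.2 and 20.5 FPKM in the control library. These transcripts share exons, so how reads were divided among them is the authors' estimate, no interval can be given for them, and reads over the junctions were not analysed here. Taking only the most abundant transcript turns the SAT1 difference to -0.37.

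Share differences of 10 percentage points or more were common in these libraries. That of the 6-exon SAT1 form was larger (-18.4 points), and genes with a difference as large were not counted. Among 5802 genes with more than 1 listed transcript and at least 10 FPKM in each library, 25.5% had a transcript whose share differed by 10 percentage points or more, a limit chosen after the SAT1 values were seen. Among the 9 polyamine genes that could be counted, all but PAOX, 2 did: SAT1 and ODC1. A share of 2 in 9 is close to that background.

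ODC1 transcripts were both lower in the knockdown library, by different amounts. ENST00000234111 had 13.6 FPKM in the knockdown and 34.5 FPKM in the control library (log2 difference -1.29), and ENST00000405333 had 10.9 FPKM in the knockdown and 17.7 FPKM in the control library (-0.66). The share of ENST00000234111, the transcript whose first intron holds the E-boxes printed above, was 55.5% in the knockdown and 66.1% in the control library. Those E-boxes fall in the window of a RefSeq start within that intron. The other ODC1 window, further upstream, did not hold the E-box. Both encode the same number of coding bases, 1383, and differ in the first exon and in the length of the last. AZIN1 also had a pair of transcripts of 1344 coding bases each, ENST00000347770 at 35.8 FPKM in the knockdown and 23.3 FPKM in the control library, and ENST00000337198 at 24.5 FPKM in the knockdown and 20.9 FPKM in the control library. In AMD1, SRM, SMS and OAZ1 a single transcript held more than 95% of the gene in both libraries.

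**Figure D3:**
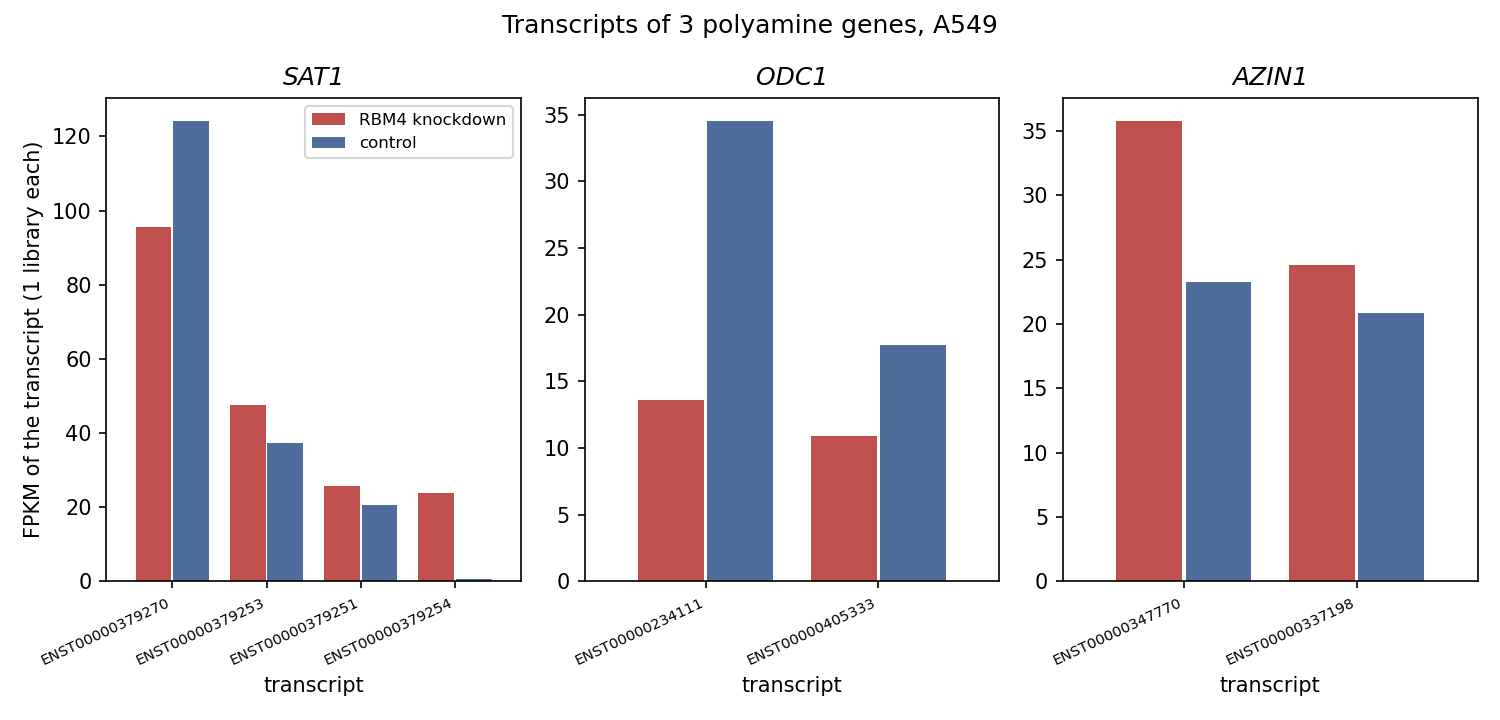
FPKM of each transcript above 0 of SAT1, ODC1 and AZIN1 in the A549 RBM4 knockdown library (left bar of each pair) and the control library (right bar), 1 library each, with a separate axis from 0 for each gene. The SAT1 form without exon 3, ENST00000379254, stands at 23.8 FPKM in the knockdown library and at 0.580 FPKM in the control library.

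Polyamine transport was the neighbouring list with the most 2-fold genes, in both directions. Of 12 listed genes, 9 reached 1 FPKM, with 2 higher and 1 lower by 2-fold, beside 4.96% and 2.25% of all genes. The median was 0.56, beside -0.04 over all genes, and it rests on SLC12A8, a gene near the minimum at 1.54 FPKM in the knockdown and 0.732 FPKM in the control library. The highest transcript per gene gave 0.24, no minimum gave 0.03 and a minimum of 5 FPKM gave 0.35, and it was 0.93 with 0.1 FPKM added in place of 1. ATP13A2, a lysosomal polyamine exporter, had 26.6 FPKM in the knockdown library, against 11.1 FPKM in the control library (1.19). SLC22A3, an organic cation transporter, had 45.8 FPKM in the knockdown library, against 20.3 FPKM in the control library (1.13). ATP13A3, a relative of ATP13A2 tied to polyamine uptake, had 68.9 FPKM in the knockdown library, against 36.2 FPKM in the control library (0.91), short of 2-fold here and past it at 1.02 and 1.07 under the same rescalings that moved ODC1, but 0.55 with its highest transcript alone. On the other side, SLC3A2, the heavy chain of amino acid transporters that has also been linked to polyamine export, had 137 FPKM in the knockdown library, against 312 FPKM in the control library (-1.18).

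Hypusine formation uses spermidine to modify the translation factor eIF5A. All 5 listed genes were measured and lay below 0, as did 53.4% of all genes. Of the 5, 0 were past 2-fold in either direction, beside 4.96% higher and 2.25% lower among all genes. A count of 0 in 5 is close to that background. The median was -0.40, beside -0.04 over all genes. It was -0.26 with mitochondrial genes left out, beside 0.11 over all genes. With the highest transcript per gene it was -0.11, beside -0.04. EIF5A had 601 FPKM in the knockdown library, against 859 FPKM in the control library (-0.51). The modifying enzymes DOHH and DHPS had 3.20 and 18.3 FPKM in the knockdown library, against 6.10 and 22.1 FPKM in the control library (-0.76 and -0.26). EIF5AL1, a near-copy of EIF5A, was the highest at 4.01 FPKM in the knockdown and 5.004 FPKM in the control library (-0.26), and the split of reads between that pair is uncertain.

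The supply of ornithine and arginine was mixed. Of 15 genes, 10 were measured, with 1 higher and 0 lower by 2-fold, beside 4.96% and 2.25% of all genes. A count of 1 in 10 is close to that background. The median was 0.25, beside -0.04 over all genes, or 0.41 with mitochondrial genes left out, beside 0.11 over all genes. ASL, argininosuccinate lyase, had 17.1 FPKM in the knockdown library, against 8.04 FPKM in the control library, at the edge of 2-fold (1.00). SLC25A15, the mitochondrial ornithine carrier, was the lowest at 5.57 FPKM in the knockdown and 9.30 FPKM in the control library (-0.65). The arginase gene ARG1 was listed at 0 in both libraries. Ornithine aminotransferase, OAT, had 42.6 FPKM in the knockdown and 35.5 FPKM in the control library (0.26).

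For methionine and S-adenosylmethionine, which feed AMD1, 14 of 15 genes were measured. Of these, 0 differed by 2-fold in either direction, beside 4.96% higher and 2.25% lower among all genes. The median was -0.30, beside -0.04 over all genes, with 10 below 0, beside 53.4% of all genes. With mitochondrial genes left out it was -0.14, beside 0.11 over all genes, and rescaled to the same total it was -0.19, beside 0.06. MAT2A, the main S-adenosylmethionine synthetase outside the liver, had 134 FPKM in the knockdown library, against 164 FPKM in the control library (-0.29). MRI1 and MTAP act in succession in the salvage of methylthioadenosine, the by-product of SRM and SMS. MRI1 was the lowest of the list at 4.06 FPKM in the knockdown and 7.66 FPKM in the control library (-0.77), and MTAP was the highest at 7.76 FPKM in the knockdown and 4.18 FPKM in the control library (0.76). Most of the MTAP sum came from ENST00000460874, at 5.77 FPKM in the knockdown and 3.003 FPKM in the control library. ENST00000380172 had 1.99 FPKM in the knockdown and 1.18 FPKM in the control library. ENST00000577563 and ENST00000580900 were listed at 0 in both. Whether an intact MTAP transcript is made in these cells was not tested. MTAP neighbours CDKN2A, which was listed at 0 in both libraries.

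Other antizyme and turnover genes were few: 4 of 7 were measured. Of these, 0 were past 2-fold in either direction, beside 4.96% higher and 2.25% lower among all genes. The median was 0.19, beside -0.04 over all genes. It turned to -0.12 with the highest transcript per gene, beside -0.04. When only genes at 5 FPKM or more were kept it turned to -0.29, beside -0.08. The quinone reductase gene NQO1, whose protein binds ODC1 and slows its breakdown, was the lowest at 1031 FPKM in the knockdown and 1562 FPKM in the control library (-0.60). AZIN2, a relative of AZIN1, was the highest at 1.13 FPKM in the knockdown and 0.498 FPKM in the control library (0.51). SAT2, a relative of SAT1, had 29.3 FPKM in the knockdown and 29.1 FPKM in the control library (0.01).

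MYC, the factor known to bind the E-boxes of ODC1, had 53.4 FPKM in the knockdown library, against 78.6 FPKM in the control library (-0.55), and its partner MAX had 20.7 FPKM in the knockdown library, against 29.5 FPKM in the control library (-0.49). Neither passed 2-fold, and MYC had 11.5% of all genes below it. Of the 13 listed genes of the MYC network, 12 were measured, with 1 higher and 0 lower by 2-fold, beside 4.96% and 2.25% of all genes. A count of 1 in 12 is close to that background. The median was -0.02, beside -0.04 over all genes, and turned to 0.14 with mitochondrial genes left out, beside 0.11. At a minimum of 5 FPKM it was -0.49, beside -0.08. MLXIP, a glucose-responsive relative that pairs with MLX, had 31.4 FPKM in the knockdown library, against 14.4 FPKM in the control library (1.07), but fell short of 2-fold with its highest transcript alone (0.99). The lowest was MXD3, a MAX-binding relative, at 6.76 FPKM in the knockdown and 11.7 FPKM in the control library (-0.71). Whether MYC binds the SRM or ODC1 promoter in these cells was not measured.

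**Figure D4:**
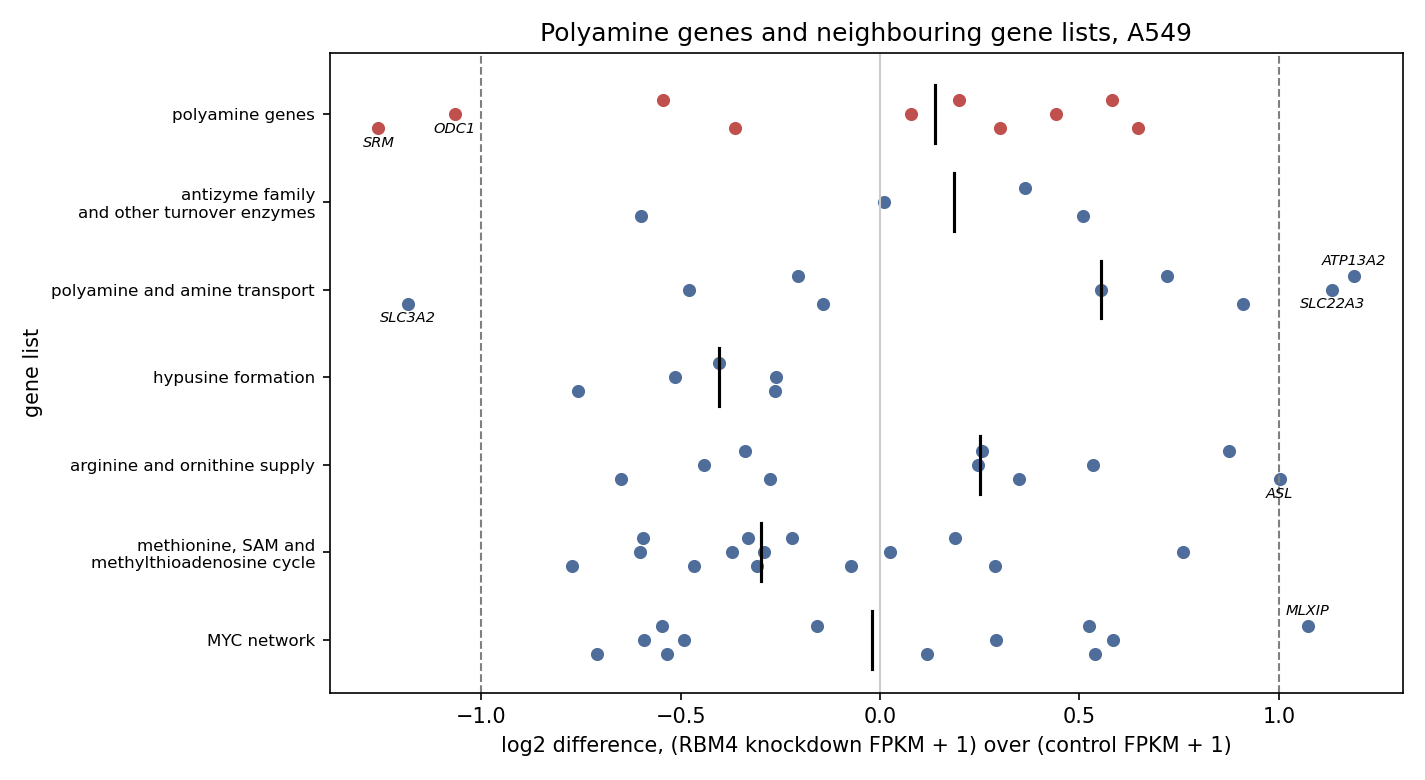
Log2 differences (knockdown over control, 1 FPKM added to each) of the 10 polyamine genes and of the measured genes of 6 neighbouring lists, 1 point per gene, with the median of each list as a black bar, 2-fold as dashed lines and genes past 2-fold named. SRM, ODC1 and SLC3A2 lie beyond 2-fold on the lower side, and ATP13A2, SLC22A3, ASL and MLXIP on the higher side.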

How the data were processed

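Neither strand setting nor depth is given in the sources used here. In the labels stand a Trizol extraction and a TruSeq kit from Illumina. The submitters' processing notes list CASAVA 1.8.2, TopHat, Cufflinks and hg38, without the role of each. Each deposited value is the FPKM of a protein-coding transcript, as the authors computed it, so counts are unknown and no interval is given.

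For A549, the value column named after the line alone was read as control and the one with a number added as knockdown. In the H1299 file 3 value columns matched no sample by name and were not used, and the planned H1299 results were not computed.

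FPKM was summed per symbol. Differences are log2 of knockdown over control FPKM, each plus 1, among genes at 1 FPKM or more in either library. Counts use 2-fold. With 1 library per group there is no test. The 10 genes and the neighbouring lists were chosen with earlier results of these data known. All 10 genes are given, and of each neighbouring list the genes past 2-fold or else the highest and lowest; other list members named were chosen for their role or after their values were seen. Gene positions and exons are from GENCODE 29 (99.5% of transcripts matched) and promoter windows from RefSeq on GRCh38.p14. The planned comparison of proteins was not run. The value of 1 marker gene is not reported here. Python 3.11.15, pandas 2.3.3, NumPy 2.4.6 and Matplotlib 3.10.9 were used.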

Additional observations from a re-analysis of the deposited data

How the results depend on the processing

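Across 5 alternatives for each of the 10 genes (pseudocount 0.1, the same total, mitochondrial genes left out, centring on the median, the highest transcript per symbol), 47 of 50 differences kept their direction and their side of 2-fold. SRM ranged from -1.29 to -1.10. ODC1 ranged from -1.29 to -0.91 and was short of 2-fold under the same total (-0.96) and with mitochondrial genes left out (-0.91), so that 1 polyamine gene, SRM, was lower by 2-fold under either. SAT1 turned to -0.37 with the highest transcript, ENST00000379270, because the other SAT1 transcripts are then not counted. Over all genes, 607 were higher and 275 lower by 2-fold, against 985 and 418 with a pseudocount of 0.1, and 176 were lower with mitochondrial genes left out. The median of the MYC network (-0.02) turned to 0.0836 under the same total, 0.14 with mitochondrial genes left out and 0.0164 after centring. The median of all genes was 0.06, 0.11 and 0 in those settings. The MYC network median was -0.12 with the highest transcript and -0.49 at a minimum of 5 FPKM, beside -0.04 and -0.08 over all genes. The median of the antizyme and turnover list turned to -0.12 with the highest transcript and to -0.29 at a minimum of 5 FPKM, where fewer genes were measured. A minimum of 1 FPKM in either library left every SAT1 and ODC1 transcript above 0 in place. Their shares therefore could not change, and nothing is read from that setting. No paired analysis was possible because each group has 1 library. Unknown depth limits the low genes most, PAOX among the 10.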
